A study of Rattus norvegicus with 32 samples.

Results

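Cpt1a and Cpt2, which encode carnitine palmitoyltransferases, are 2 of the 26404 genes counted in the renal cortex of these rats. They were chosen by Ensembl identifier, and both lay on the chromosome that the choice required. Sprague Dawley rats without surgery served as healthy controls (SD). The other groups were Zucker Diabetic Sprague Dawley (ZDSD) rats, which become obese and diabetic, and underwent a laparotomy (SHAM), Roux-en-Y gastric bypass (RYGB), or RYGB followed by fenofibrate, metformin, ramipril and rosuvastatin mixed into chow (RYGB-FMRR). All rats were male and were labelled as 37 weeks old, and the 3 ZDSD groups had all received insulin in the week before surgery. The methods of the study place surgery earliest in SHAM, later in RYGB-FMRR and latest in RYGB. They also give a fixed period from intervention to tissue collection, which cannot hold together with one labelled age for these groups. Either age at collection or time since surgery therefore differed between them. Between these groups, treatment cannot be told apart from time of surgery or from this difference. Strain and disease cannot be told apart between SHAM and SD, nor can the 4 drugs within RYGB-FMRR.

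Long-chain fatty acids cannot enter the mitochondrial matrix as coenzyme A esters. Carnitine palmitoyltransferase 1, in the outer mitochondrial membrane, transfers the acyl chain to carnitine, and this step limits the rate of fatty acid oxidation and is inhibited by malonyl-CoA. Cpt1a encodes its liver-type form, which is also the main form in kidney. Carnitine palmitoyltransferase 2, encoded by Cpt2 and bound to the inner membrane, returns the chain to coenzyme A so that beta-oxidation can begin. The proximal tubule, which makes up most of the renal cortex, draws much of its energy from fatty acids. Both genes are known targets of the nuclear receptor PPARα, which fenofibrate activates.

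Libraries of 6 SD, 7 SHAM, 9 RYGB and 7 RYGB-FMRR rats were compared, with total counts from 14502127 to 27597901. SHAM rats 343 and 348, with totals of 121511 and 101534, fell under the limit of 1000000 counts and were left out. The other 29 libraries entered one edgeR model of 14776 genes, in which a gene was called when it moved by 1.3-fold or more in either direction with a p-value under 0.05 after Benjamini-Hochberg adjustment. Levels are given as counts per 1000000 (CPM) after scaling by the trimmed mean of M-values (TMM). Each library came from the RNA of a whole piece of cortex, where fewer cells of a type and less RNA per cell cannot be told apart. No table used here pairs the other identifiers with symbols, so the tissue was not checked against markers and other genes of the carnitine shuttle were not examined.

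In the rn5 build, Cpt1a (ENSRNOG00000014254) lies on the plus strand of chromosome 1 from 225437255 to 225497583. Its 19 exons add up to 4379 bases, of which the last exon holds 2042. Cpt2 (ENSRNOG00000012443) lies on the minus strand of chromosome 5 from 131353542 to 131370821, with 5 exons that add up to 2296 bases and a longest exon of 1305. No other gene in the count files overlapped the span of either gene. The RefSeq table of the GRCr8 build places both symbols on the same chromosomes and strands. Its spans are 62449 bases for Cpt1a and 17898 for Cpt2, against 60329 and 17280 in rn5.

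The promoter sequences are shown because both genes were highest in the same group, and the 2 windows differ in base composition. RefSeq gives one start per gene in GRCr8, and the 250 bases before it are printed 5′ to 3′ on the strand of the gene. Whether these starts are those of the exons counted in rn5 was not examined. The Cpt1a window is chr1:209995910-209996159 (plus strand) and the Cpt2 window is chr5:127910819-127911068 (minus strand). Capitals mark GGGCGG, the GC box.
Cpt1a: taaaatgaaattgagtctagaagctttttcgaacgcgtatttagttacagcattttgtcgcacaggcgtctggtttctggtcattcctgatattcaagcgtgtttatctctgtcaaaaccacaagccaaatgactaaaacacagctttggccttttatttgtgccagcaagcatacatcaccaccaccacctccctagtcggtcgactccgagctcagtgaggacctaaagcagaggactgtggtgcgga
Cpt2: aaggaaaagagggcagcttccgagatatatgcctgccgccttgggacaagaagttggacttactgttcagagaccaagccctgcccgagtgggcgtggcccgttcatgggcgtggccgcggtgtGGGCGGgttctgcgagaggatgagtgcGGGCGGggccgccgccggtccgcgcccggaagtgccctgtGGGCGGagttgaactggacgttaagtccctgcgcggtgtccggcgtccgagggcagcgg
The Cpt2 window had a GC content of 66.8% and held the GC box 3 times, starting 126, 99 and 59 bases before the start. The Cpt1a window had a GC content of 45.6% and no GC box, against a median GC content of 51.2% over 33469 promoters. GGGCGG or its reverse complement occurred in 30.5% of those promoters. AGGTCA, the half-site that PPARα and its partner RXR recognise, was found in neither window on either strand, and it occurred in 14.1% of promoters. An exact match to the consensus PPARα element, 2 direct repeats of that half-site separated by 1 base, was also in neither window and occurred in 0.0508% of promoters. Imperfect matches and bases outside these windows were not searched, so whether either gene has a PPARα site cannot be read from them. The CCAAT box was in neither window and occurred in 34.0% of promoters. The E-box CACGTG was likewise missing from both and occurred in 5.59% of promoters. The TATAAA box was missing from both and occurred in 12.9% of promoters. These matches describe only the letters in these windows.

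Cpt2 expression was highest in RYGB-FMRR, where it lay above every rat of the other groups. It ranged in RYGB-FMRR from 107 to 217 CPM with a median of 159. In RYGB it ranged from 47.0 to 62.4 CPM with a median of 56.2. In SHAM the range was 53.7 to 77.7 CPM with a median of 58.6, and in SD 47.5 to 70.2 CPM with a median of 54.7. The lowest RYGB-FMRR rat, 326, thus stood 1.38 times as high as SHAM rat 315, the highest of the 22 other rats. Among all genes tested, 0.765% had every RYGB-FMRR rat above all 22 others.

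Cpt1a expression was also highest in RYGB-FMRR, but with overlap. It ranged in RYGB-FMRR from 525.7 to 714 CPM with a median of 599. In SHAM it ranged from 349 to 601 CPM with a median of 449. In RYGB 8 of 9 rats lay between 321 and 383 CPM, while rat 330 reached 565 CPM. In SD the range was 356 to 516 CPM with a median of 394. Of the 7 RYGB-FMRR rats, 7 lay above all SD rats, 6 above all RYGB rats and 3 above all SHAM rats.

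**Figure D1:**
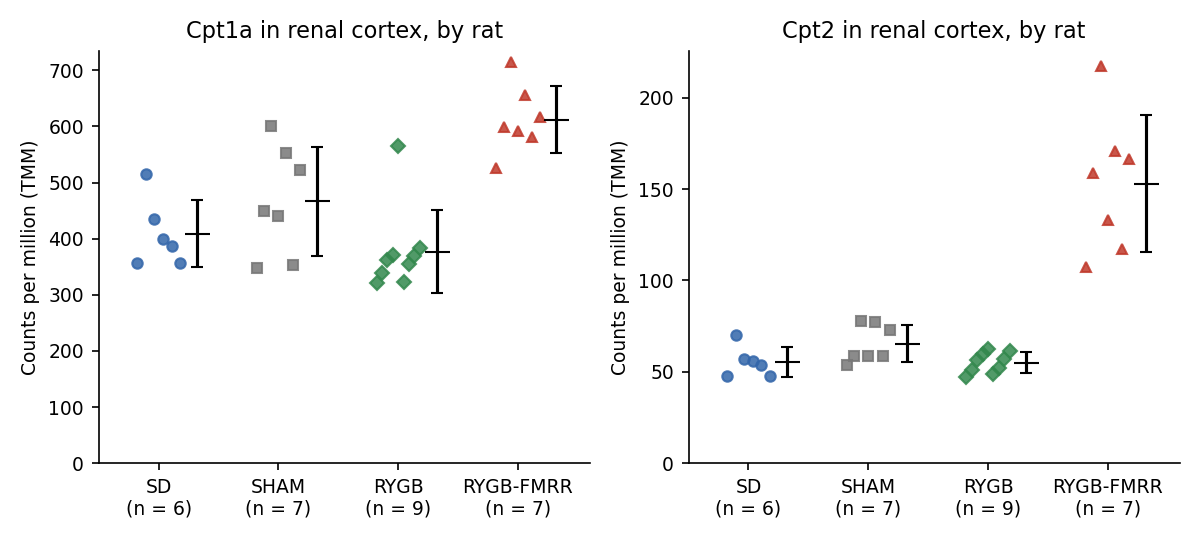
CPM (TMM scaled, axes from 0) of Cpt1a and Cpt2 in each rat of the 4 groups, with a bar for the group mean and whiskers of 1 SD. All 7 RYGB-FMRR rats lie above the other 22 for Cpt2 (lowest 107 against highest 77.7 CPM), whereas for Cpt1a RYGB rat 330 and 2 SHAM rats reach into the RYGB-FMRR range.

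Both transcripts were higher after RYGB with the 4 drugs than after RYGB alone. Cpt2 rose from 55.1 ± 5.50 CPM (SD, n = 9) in RYGB to 153 ± 37.4 CPM (SD, n = 7) in RYGB-FMRR. The log2 fold change was 1.47 (standard error 0.11, 95% interval 1.24 to 1.71), or 2.78-fold, (adjusted p = 1.46e-10, quasi-likelihood test of edgeR), and the 2 groups did not overlap. Cpt1a rose from 377 ± 73.8 CPM (SD, n = 9) to 612 ± 59.8 CPM (SD, n = 7). Its log2 fold change was 0.70 (standard error 0.11, 95% interval 0.47 to 0.93), or 1.63-fold (edgeR adjusted p = 0.000103). In this comparison 2.74% of all genes were called higher, and 1.96% were higher without overlap. By p-value Cpt2 ranked 23rd and Cpt1a 168th of 14776 genes.

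RYGB-FMRR also differed from SHAM, by a much larger amount for Cpt2 than for Cpt1a. Cpt2 was 2.34-fold higher (log2 fold change 1.23, standard error 0.12, edgeR adjusted p = 2.61e-08) than the SHAM mean of 65.3 ± 10.2 CPM (SD, n = 7). Cpt1a was 1.31-fold higher (log2 fold change 0.39, standard error 0.12, 95% interval 0.14 to 0.64, edgeR adjusted p = 0.0207) than the SHAM mean of 467 ± 97.2 CPM (SD, n = 7). In this comparison 4.43% of all genes were called higher, and 3.44% were higher without overlap, as Cpt2 was. The Cpt1a call stood at the edge of the fold limit. Its log2 fold change was 0.34 without SHAM rat 321, 0.33 without SHAM rat 340, 0.35 without RYGB-FMRR rat 324 and 0.37 without RYGB-FMRR rat 336. Each of these values is under 1.3-fold, with edgeR adjusted p from 0.0387 to 0.049. TMM factors were 0.931 to 1.004 in RYGB-FMRR and 1.01 to 1.12 in SHAM, and with library totals alone the difference was 0.27 (edgeR adjusted p = 0.0828).

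RYGB alone gave no called change from SHAM in either gene. The log2 fold change was -0.31 for Cpt1a (standard error 0.11, 95% interval -0.54 to -0.07, edgeR adjusted p = 0.0711) and -0.24 for Cpt2 (standard error 0.12, 95% interval -0.48 to -0.01, edgeR adjusted p = 0.16). In this comparison 3.86% of all genes were called lower. The Cpt1a result rested on RYGB rat 330. Without it the log2 fold change was -0.40 (standard error 0.10, edgeR adjusted p = 0.00884), which passed both limits. Both comparisons with SHAM use the same SHAM rats, so the values of RYGB and RYGB-FMRR stand side by side and are not independent.

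Neither gene was called in SHAM compared with SD, where 18.6% of all genes were called in either direction. The log2 fold change was 0.19 for Cpt1a (standard error 0.13, 95% interval -0.07 to 0.45, edgeR adjusted p = 0.244) and 0.24 for Cpt2 (standard error 0.13, 95% interval -0.02 to 0.50, edgeR adjusted p = 0.146). The upper ends of these intervals correspond to a 1.37-fold and a 1.41-fold difference. With library totals in place of TMM, where the median of all genes moved to 0.14, the values were 0.32 for Cpt1a (edgeR adjusted p = 0.0376) and 0.36 for Cpt2 (edgeR adjusted p = 0.0206), which passed the limit on the p-value but stayed under 1.3-fold. The SD rats had means of 409 ± 60.0 CPM (SD, n = 6) for Cpt1a and 55.3 ± 8.36 CPM (SD, n = 6) for Cpt2.

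Compared with SD, RYGB showed no called difference, where 19.5% of all genes were called in either direction, with log2 fold changes of -0.12 for Cpt1a (standard error 0.12, 95% interval -0.36 to 0.13, edgeR adjusted p = 0.451) and -0.01 for Cpt2 (standard error 0.12, 95% interval -0.25 to 0.24, edgeR adjusted p = 0.971). RYGB-FMRR stood above SD in both genes, with log2 fold changes of 0.58 for Cpt1a (standard error 0.13, edgeR adjusted p = 0.000887) and 1.47 for Cpt2 (2.76-fold, standard error 0.13, edgeR adjusted p = 2.12e-09). Both genes were free of overlap between these groups, where 7.8% of all genes were called higher and 5.45% were higher without overlap. For Cpt1a the gap was narrow, with the lowest RYGB-FMRR rat 1.02 times as high as the highest SD rat. By mean CPM the order of the groups was RYGB, SD, SHAM and RYGB-FMRR for both genes. For Cpt2, RYGB and SD were nearly equal, at 55.1 and 55.3 CPM, and their medians came in the other order. Of the steps in this order only the last, from SHAM to RYGB-FMRR, was called.

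**Figure D2:**
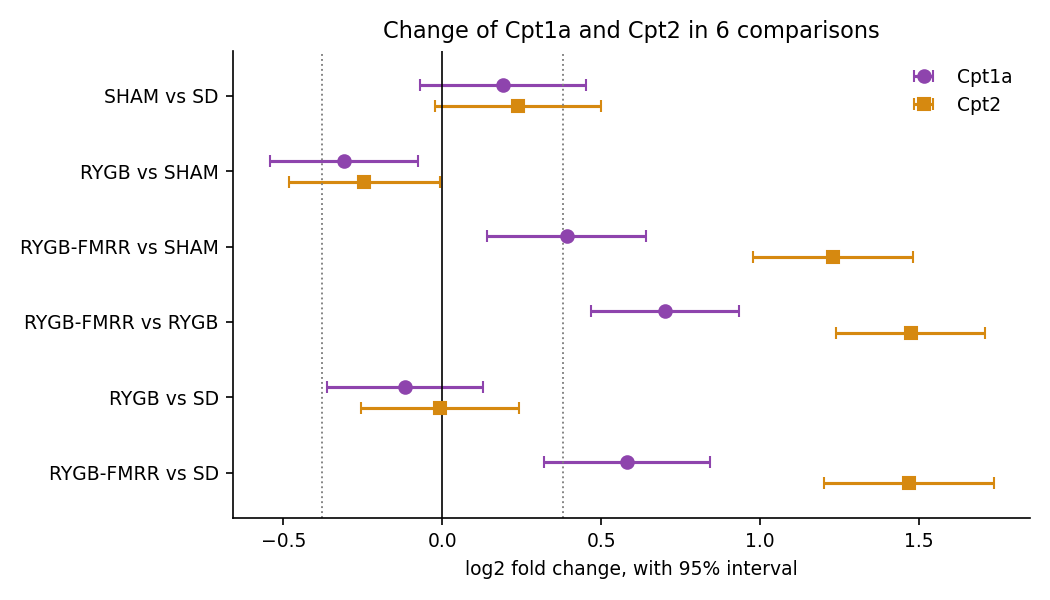
Log2 fold change (x axis) of Cpt1a (circles) and Cpt2 (squares) in the 6 comparisons, with 95% intervals from the edgeR fit. Dotted lines mark a fold change of 1.3 in either direction, and the largest values are those of Cpt2 in the 3 comparisons of RYGB-FMRR, at 1.23, 1.47 and 1.47.

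Set against all genes tested, Cpt2 changed more than 99.5% of genes in RYGB-FMRR compared with RYGB, by the size of its log2 fold change, and Cpt1a more than 96.6%. In RYGB-FMRR compared with SHAM these shares were 98.1% and 81.3%. In RYGB compared with SHAM they were 77.0% and 83.3%.

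**Figure D3:**
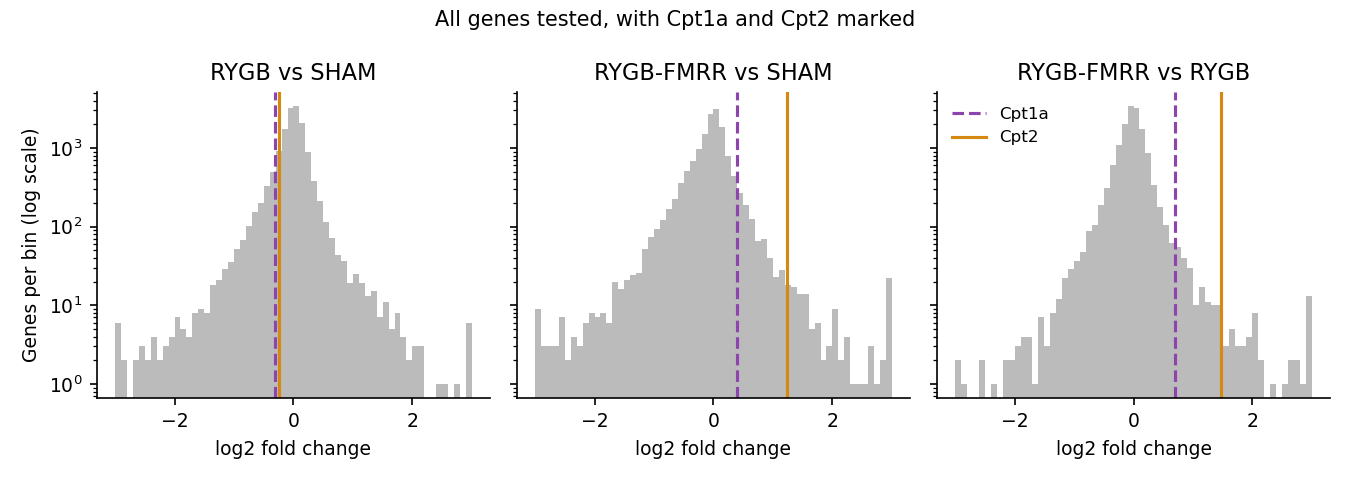
Number of genes (log scale) by log2 fold change, in bins of 0.1, for 3 comparisons of treated groups, with changes beyond 3 in either direction placed in the outermost bins. The dashed line (Cpt1a) and solid line (Cpt2) lie slightly left of 0 in RYGB compared with SHAM, at -0.31 and -0.24, and to the right in both comparisons of RYGB-FMRR, at 0.39 and 1.23 against SHAM and at 0.70 and 1.47 against RYGB.

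The ratio of the 2 counts within each library, which does not depend on how libraries are scaled, was compared between groups. Cpt1a had 4.14 ± 0.75 counts per Cpt2 count in RYGB-FMRR (SD, n = 7), against 6.89 ± 1.41 in RYGB (SD, n = 9), 7.12 ± 0.76 in SHAM (SD, n = 7) and 7.40 ± 0.24 in SD (SD, n = 6). RYGB-FMRR values ran from 3.29 in rat 324 to 5.50 in rat 326. The lowest ratio was 6.02 in SHAM and 6.95 in SD, and in RYGB only rat 338, at 5.38, fell inside the RYGB-FMRR range.

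On the log2 scale the ratio was lower by 0.73 ± 0.13 (standard error) in RYGB-FMRR than in RYGB (two-sided exact permutation p = 0.000175, adjusted p = 0.00105 over 6 comparisons). It was lower by 0.79 ± 0.11 than in SHAM (exact permutation p = 0.000583, adjusted p = 0.00175) and by 0.85 ± 0.10 than in SD (exact permutation p = 0.00117, adjusted p = 0.00233). The other comparisons did not pass the test. The difference was -0.06 ± 0.06 for SHAM and SD (exact permutation adjusted p = 0.456), -0.06 ± 0.11 for RYGB and SHAM (exact permutation adjusted p = 0.593) and -0.13 ± 0.09 for RYGB and SD (exact permutation adjusted p = 0.444). RYGB rat 330 held the highest ratio of all rats, at 10.1, with Cpt1a at 565 and Cpt2 at 56.2 CPM. Without rat 330 the ratio was also lower in RYGB than in SD, by a log2 difference of -0.20 (exact permutation adjusted p = 0.039).

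**Figure D4:**
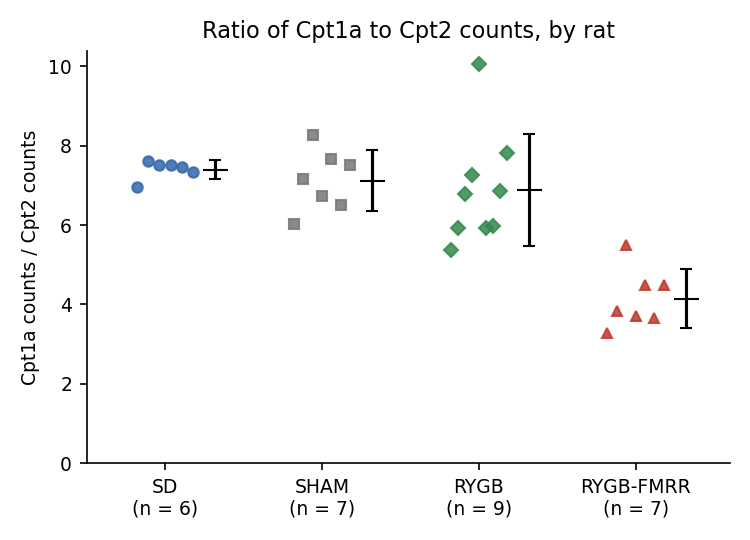
Cpt1a counts divided by Cpt2 counts in each rat of the 4 groups (axis from 0), with a bar for the group mean and whiskers of 1 SD. The 7 RYGB-FMRR rats lie between 3.29 and 5.50, and the other rats between 5.38 and 10.1.

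Per length of transcript, Cpt1a remained the more abundant of the pair in every group. Divided by exon length in kilobases, the Cpt1a level was 140 ± 13.7 CPM per kilobase in RYGB-FMRR (SD, n = 7), 86.0 ± 16.8 in RYGB (SD, n = 9), 107 ± 22.2 in SHAM (SD, n = 7) and 93.3 ± 13.7 in SD (SD, n = 6). The Cpt2 level was 66.6 ± 16.3 CPM per kilobase in RYGB-FMRR (SD, n = 7), 24.0 ± 2.40 in RYGB (SD, n = 9), 28.4 ± 4.45 in SHAM (SD, n = 7) and 24.1 ± 3.64 in SD (SD, n = 6). The Cpt1a level per length was on average 3.88 times that of Cpt2 in SD and 2.17 times that of Cpt2 in RYGB-FMRR. Ranked by level per length among the genes tested, Cpt2 moved from a mean percentile of 70.5 in RYGB to 88.7 in RYGB-FMRR, and Cpt1a from 92.4 to 95.3. Isoforms could alter these levels, since the length is the union of all annotated exons.

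For each gene edgeR fits a single biological coefficient of variation, pooled over the groups and moderated across genes. It was 16.1% for Cpt1a and 16.0% for Cpt2, against a median of 11.6% over all genes tested. Within groups, the coefficient of variation of Cpt2 CPM was 24.5% in RYGB-FMRR, 9.99% in RYGB, 15.6% in SHAM and 15.1% in SD. That of Cpt1a CPM was 9.78% in RYGB-FMRR, 19.6% in RYGB, 20.8% in SHAM and 14.7% in SD. The Cpt1a value in RYGB rested on rat 330, and was 6.53% over the other 8 rats. No test was made of these spreads. RYGB-FMRR rat 324 was highest in both genes, at 714 and 217 CPM.

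Rats high in one gene were high in the other in 3 of the groups. Pearson's r between the log2 CPM of Cpt1a and Cpt2 was 0.97 in SD (n = 6, exact permutation p = 0.00417, adjusted p = 0.0167 over 4 groups; Spearman's rho 0.94, exact permutation p = 0.0167, adjusted p = 0.0455). In SHAM it was 0.88 (n = 7, exact permutation p = 0.0179, adjusted p = 0.0333) and rho was 0.82 (exact permutation p = 0.0341, adjusted p = 0.0455). In RYGB-FMRR r was 0.82 (n = 7, exact permutation p = 0.025, adjusted p = 0.0333) and rho was 0.82 (exact permutation p = 0.0341, adjusted p = 0.0455). No relation was detected in RYGB, with r = 0.09 (n = 9, exact permutation p = 0.868, adjusted p = 0.868) and rho = -0.10 (exact permutation p = 0.81, adjusted p = 0.81). Whether r differed between groups was not tested. Without the 2 rats farthest from the group median of Cpt1a, r was 0.25 in RYGB, 0.87 in SD, 0.84 in SHAM and 0.54 in RYGB-FMRR. In RYGB-FMRR these were rats 307 and 324, the lowest and highest in Cpt1a. Leaving out such rats narrows the range, which can by itself lower r, and these values were not tested.

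**Figure D5:**
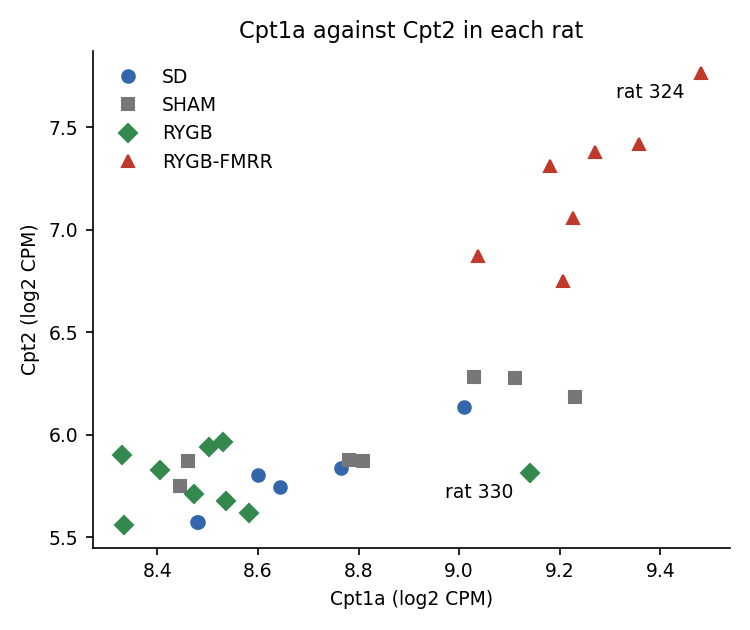
Log2 CPM of Cpt2 (y axis) against Cpt1a (x axis), with one point per rat and a symbol per group. RYGB-FMRR rats occupy the upper right with rat 324 highest in both genes, whereas RYGB rat 330 has a high Cpt1a level of 9.14 beside a Cpt2 level of 5.81.

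Over all 29 rats the log2 CPM of the pair had r = 0.84, which includes the differences between groups and is given as a description. Of 14775 other genes, Cpt2 was the third most like Cpt1a, while Cpt1a was 60th among those most like Cpt2. With each group mean subtracted, r was 0.60, and the ranks were 58th for Cpt2 and 119th for Cpt1a. The gene most like Cpt1a was ENSRNOG00000007545, on chromosome 7 from 18805416 to 18811643 in rn5 (r = 0.89), with mean log2 CPM values of 6.10 in RYGB-FMRR, 0.61 in RYGB, 1.91 in SHAM and 1.41 in SD. The gene most like Cpt2 was ENSRNOG00000016692, on chromosome 5 from 80949471 to 80982918 (r = 0.97), with means of 8.51 in RYGB-FMRR, 7.32 in RYGB, 7.55 in SHAM and 7.58 in SD. After subtraction of the group means, ENSRNOG00000016692 was still the most like Cpt2 (r = 0.91). ENSRNOG00000007545 then ranked 2nd for Cpt1a (r = 0.749), just behind another gene (r = 0.750).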

How the data were processed

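Stranded libraries of renal cortical RNA were sequenced from both ends. Per the methods and the file headers, the authors used Trim Galore 0.4.0 with Cutadapt 1.9 for trimming and STAR 2.5.2b for alignment to rn5, and counted read pairs on the reverse strand over Ensembl exons with featureCounts 1.6.4. The deposited values are raw counts per gene, with no normalization or filter. One labelled RYGB-FMRR rat was not analysed here.

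Libraries under 1000000 counts were left out. Counts were analysed with edgeR 4.0.16 in R 4.3.3 (TMM, filterByExpr with a minimum count of 10, quasi-likelihood test, 4 groups in one model, no covariates), and p-values were adjusted over 14776 genes. The thresholds are those of the study, whose DESeq2 Wald test (DESeq2 1.42.0) was run as an alternative. Log2 CPM used a prior count of 2. Each standard error was derived from the F statistic of its fold change, and intervals are at 95%. Permutation tests enumerated every arrangement. The fits were tested on simulated counts of 14693 genes with known changes in RYGB-FMRR compared with RYGB. They called 95 of 100 changes of 2-fold and 68 of 97 changes of 1.5-fold, with 10 false calls.

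Other alternatives were DESeq2 size factors, no filter, all 31 libraries, only the groups compared, 2 surrogate variables (sva 3.50.0), the adjusted p-value alone, leaving out each library and, chosen after seeing the data, library totals without TMM factors. The members and lists were chosen with earlier results of these data known. Named genes were to include the carnitine shuttle, beta-oxidation and PPAR lists, cell markers and the 5 genes most like each member, but identifiers other than those of Cpt1a and Cpt2 carry no symbol here, so only the single most alike gene of each is given. Nothing beyond the labels separates the rats of a group. The edgeR p-values set each difference against variation between these rats, pooled over the 4 groups and moderated across genes. The permutation p-values count arrangements of the rats. No 2 libraries had identical counts.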

Additional observations from a re-analysis of the deposited data

Results flagged for a closer look

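In RYGB, the Cpt1a level of rat 330 stood apart from the other 8 rats, at a log2 CPM of 9.14, with a gap of 0.69 of the range of the group. It was the only rat to stand apart in 12 sets of rats examined (Cpt1a, Cpt2 and their ratio in 4 groups). Chance flags about 1 set in 20, or 0.6 of these 12 sets.

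The 2 SHAM libraries that were left out held signal above the limit that a count of 0 allows, which is 3 counts, in 3 of 4 values. Cpt1a had 395 counts per 1000000 counts of its library in rat 343 (95% interval 291 to 524, from 48 counts) and 404 in rat 348 (95% interval 290 to 548, from 41 counts), against 357 to 675 in the 7 SHAM rats kept. Cpt2 had 49.2 counts per 1000000 in rat 348 (95% interval 16.0 to 115, from 5 counts), against 55.6 to 81.6 in the rats kept. In rat 343 Cpt2 had 2 counts, or 16.5 counts per 1000000 (95% interval 1.99 to 59.5), which is under the limit of 24.7. The intervals are exact Poisson intervals and cover counting error only.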

How the results depend on the processing

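With library totals in place of TMM, RYGB-FMRR compared with SHAM was no longer called for Cpt1a, at a log2 fold change of 0.27 (edgeR adjusted p = 0.0828, over a range of 0.00759 to 0.0828 in 8 alternatives). Under that scaling the median of all genes moved to -0.13 in this comparison, so that Cpt1a lay 0.39 above it. Among all called genes, 76.1% were then higher in SHAM than in SD (56.9% with TMM), 68.3% higher in RYGB than in SD (51.7%), 29.5% higher in RYGB-FMRR than in RYGB (60.1%) and 18.5% higher in RYGB-FMRR than in SHAM (36.5%). Cpt2 in RYGB compared with SD changed sign, from -0.01 to 0.088, and was uncalled, as did the ratio in SHAM compared with SD with all libraries, at 0.16 (exact permutation adjusted p = 0.804), where the 2 added rats had 2 and 5 Cpt2 counts. Among values that were not called, Cpt1a in RYGB compared with SD moved from -0.12 to -0.027 with library totals, and the ratio in RYGB compared with SHAM from -0.06 to -0.28 with all libraries. Of 122 alternative values that did not leave out single rats, the other 119 showed no change of direction or call. For some of these no change was possible. Levels per length have no call and are always positive. Ratios between groups other than SHAM are the same with all libraries, since both added libraries are SHAM. The adjusted p-value alone reuses the main fit, so only the call could change.

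With each rat left out, the log2 fold change ranged from 0.33 to 0.46 for Cpt1a in RYGB-FMRR compared with SHAM (called in 10 of 14), from -0.40 to -0.24 for Cpt1a in RYGB compared with SHAM (called in 1 of 16) and from -0.047 to 0.073 for Cpt2 in RYGB compared with SD (called in 0 of 15). The log2 difference in the ratio between RYGB and SD ranged from -0.20 to -0.085 (past the test in 1 of 15). Every other result kept its call. In RYGB-FMRR compared with RYGB, Cpt2 ranged from 1.37 to 1.54 and Cpt1a from 0.66 to 0.79. The cause of these dependences was not tested. No paired analysis was possible because no rat belonged to 2 groups and the labels repeat no rat number.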
